A study of Mus musculus with 22 samples.

Results

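The left and the right ventricle of control mouse hearts were compared at embryonic day E13.5 by bulk RNA sequencing. The comparison rests on 8 of the 22 libraries of the series, taken by their titles: 4 isolated left ventricles and 4 isolated right ventricles of control embryos. The series set out to compare hearts and ventricles carrying a conditional knockout (cKO) of Prdm16, a zinc finger transcription factor gene, with those of littermates. All animals are labelled as strain C57BL/6, and the controls carry the entry Mock in place of a genetic change. The alleles of the controls, the sex of the embryos, the number of embryos behind a library and which ventricles shared a heart are not given in the sources used here. The p-values therefore measure the spread between these libraries, which may be partly technical.

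In the mouse, the left ventricle forms largely from the first heart field, and the right ventricle and the outflow tract from the second heart field, a population of progenitors that is added later. Hand1 and Tbx5 encode transcription factors known from the left chamber, while Hand2 and Isl1 are linked to the second heart field. By mid-gestation each ventricle has an outer compact wall that divides and an inner mesh of trabeculae that expresses genes such as Nppa and Gja5, and the right ventricle borders the outflow tract with its cushions and smooth muscle.

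Each of the 8 libraries held 14508722 to 22830716 estimated reads. Levels are given in TPM, a measure of transcript abundance scaled to transcript length and library size, and differences as log2 fold changes of counts, left over right, so that a positive value is higher in the left. A gene was called when its adjusted p in edgeR's quasi-likelihood test with Benjamini-Hochberg adjustment over all genes tested was under 0.05, and every adjusted p below comes from that test. The ventricular identity of the tissue was checked on Myl2, the ventricular myosin light chain, which stood at 26261 to 28924 TPM in the left and 25140 to 30143 TPM in the right libraries. Tissue of neighbouring organs was near absent, with 8 liver and lung markers summing to at most 4.96 TPM in any of the 8 libraries. Sln, a gene of atrial muscle named after its values were seen, reached at most 1.93 TPM. It is 1 of 13 atrial markers. These summed to 3349 to 3587 TPM in the left and 4195 to 4538 TPM in the right libraries. Whether atrial tissue was present was not tested. In bulk tissue, fewer cells of a type and less RNA per cell cannot be told apart, and this holds for every level below.

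One library stood apart from its group. On the first principal component of log2 CPM (counts scaled to library size), which held 31.8% of the variance, the 4 left libraries lay at -24.3 to -17.8 and right ventricle controls 1, 3 and 4 at 25.1 to 29.3, while right ventricle control 2 lay at 1.3. On the second component (21.6%) that library lay at 46.2 and the other 7 between -13.6 and 1.5. Genes of cushion mesenchyme, the tissue that forms the valves, had high levels in it. Its level of Postn, a matrix protein of the cushions, was 266 TPM against 42.0 to 47.6 TPM in the other 3 right libraries, and its level of Meox1, a homeobox gene of the same mesenchyme, was 25.8 against 1.45 to 1.89 TPM. Isl1 was at 2.86 TPM there and at most 0.139 TPM in each of the other 7 libraries. The 17 cushion markers summed to 783 TPM in it, against 268 to 306 TPM in the other right libraries and 292 to 442 TPM in the left ones, and 16 of the 17 had their highest level in it. The 8 ventricular muscle markers summed to 32578 TPM in it, against 37352 to 38205 TPM in the other right libraries. Results are therefore given with all 8 libraries and, for many lists and some genes, without this library. Sizes also changed for genes given below only with all 8. Without this library the log2 fold change, left over right, was 2.16 in place of 2.32 for Gja5. For Nppa it was 0.95 in place of 1.10.

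**Figure D1:**
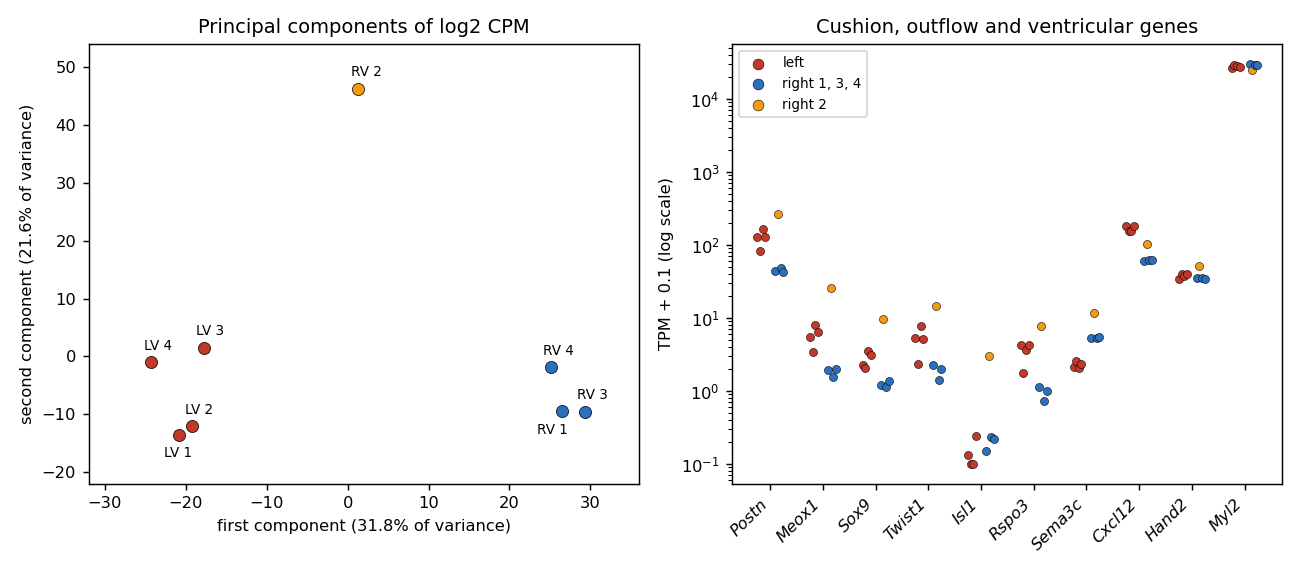
Left panel: first and second principal component of log2 CPM for the 8 control libraries, LV for left and RV for right ventricle. Right panel: TPM plus 0.1, on a log scale, of cushion genes (Postn, Meox1, Sox9, Twist1), outflow genes (Isl1, Rspo3, Sema3c, Cxcl12), Hand2 and the ventricular gene Myl2, 1 point per library; right ventricle control 2, in orange, is the highest of the 4 right libraries for every gene but Myl2. Sox9 and Twist1 were chosen after their values were seen.

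Differences between the chambers were many and mostly small. Of 15897 genes tested, 2527 (15.9%) were called, 1123 higher in the left (7.06%) and 1404 higher in the right (8.83%). The median size among called genes was 0.31 on the log2 scale, and 213 genes exceeded 1, of which 128 were higher in the left and 85 in the right. The libraries of the chambers did not overlap in CPM for 3369 genes (21.2%). Without right ventricle control 2, 4173 of 16033 genes were called (26%), 1902 higher in the left (11.9%) and 2271 in the right (14.2%). Of the 2527 genes, 2478 were called there too, all in the same direction. The biological coefficient of variation between replicates was 0.102 with all 8 libraries and 0.064 without that one. Which chamber has more called genes depended on the scaling: with library totals in place of TMM factors, 1697 genes were higher in the left and 937 in the right, and limma on log2(TPM + 1) put 65.5% of its calls in the left against 44.4% here. These settings moved the median of all genes from 0.003 to 0.057 and 0.050.

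**Figure D2:**
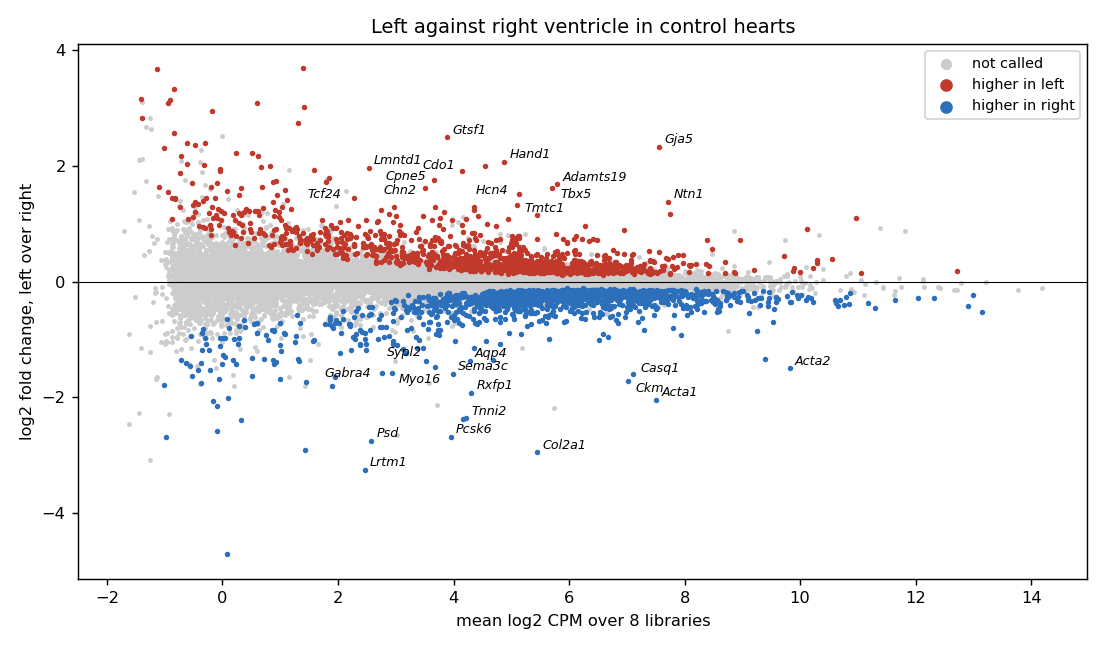
Log2 fold change, left over right, against mean log2 CPM over the 8 control libraries for the 15897 genes tested, each point 1 gene, with called genes in red (higher in left) or blue (higher in right) and many of the largest well-expressed changes named. Of the genes named in the plot, Lrtm1 at -3.25 and Gtsf1 at 2.49 are the outermost.

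The listed genes of the left ventricle and the first heart field were higher in the left without exception. Their list was chosen with earlier results of these data known. All 6 members of that list (Hand1, Tbx5, Cited1, Hcn4, Nppa and Gja5) were called higher in the left, with a median of 1.57 against 0.003 over all genes tested, and of 1.5 without right ventricle control 2. Hand1, a basic helix-loop-helix factor of the left chamber wall (chr11:57828705-57832818, minus strand, GRCm38), was at 45.1, 48.2, 46.5 and 38.9 TPM in the left and 6.38, 12.2, 6.46 and 7.35 TPM in the right libraries. The groups did not overlap, and the highest right value was that of right ventricle control 2. The difference was 2.07 (SE 0.09, adjusted p = 1.26e-06), a 4.19-fold higher level in the left.

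Tbx5, a T-box factor required for left chamber and septum formation (chr5:119832668-119885219, plus strand), was at 26.5, 28.9, 27.9 and 29.9 TPM in the left and 10.2, 6.58, 7.46 and 9.23 TPM in the right. The groups lay well apart, and the difference was 1.62 (SE 0.12, adjusted p = 3.42e-05). Gja5, which encodes connexin 40, a gap junction protein of trabeculae and the fast conduction system (chr3:96904693-97077416, plus strand), was at 285, 291, 240 and 291 TPM in the left and 72.7, 37.5, 51.4 and 57.2 TPM in the right. Its difference of 2.32 (SE 0.18, adjusted p = 4.96e-05), or 4.99-fold, was the second largest toward the left among the well-expressed genes named by rule, after Gtsf1. Hcn4, a pacemaker channel of early muscle and conduction cells, was at 8.65 to 11.9 TPM in the left and 3.06 to 3.41 TPM in the right, a difference of 1.51 (SE 0.09, adjusted p = 1.08e-05). Cited1, a transcriptional cofactor, was at 633 to 814 TPM against 378 to 497 TPM, a smaller difference of 0.57 (SE 0.11, adjusted p = 0.00861).

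The natriuretic peptide genes, which lie close together in the genome, differed in opposite directions. Nppa, a trabecular and atrial gene (chr4:148000722-148002079, plus strand), was at 4824, 5171, 4169 and 3840 TPM in the left and 2180, 1440, 1636 and 2627 TPM in the right, a difference of 1.10 (SE 0.19, adjusted p = 0.00438). Nppb was at 118, 171, 204 and 123 TPM in the left and 280, 280, 309 and 291 TPM in the right, a difference of -0.95 (SE 0.16, adjusted p = 0.00358). Neither gene overlapped between the groups. Of the 10 tested members of the trabecular list, 4 were higher in the left, where 7.06% of all genes were, and 1, Nppb, in the right (median 0.35). Without right ventricle control 2 these were 5 and 1, with a median of 0.21, against 11.9% and 14.2% of all genes. Nppa, Gja5 and Cited1, all higher in the left, are also on the left ventricle list, so the counts of these lists are not independent. Bmp10, a growth factor of trabecular muscle, was not called: its left libraries held 55.1 to 68.3 TPM and its right ones 34.0 to 58.6 TPM.

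The promoters of Nppa and, from the right-biased genes described further on, of Acta1, Actc1 and Srf are shown as examples, not chosen by a rule. Each holds a short sequence for a factor that was itself measured here, as do other named genes listed below. Each line gives the 250 bases before the RefSeq start (assembly GRCm38.p6), 5′ to 3′ on the strand of the gene, with the matched letters in capitals. In Nppa (chr4:148000472-148000721, plus strand) the capitals are the T-box core GGTGTGA, read on the opposite strand, at 250 to 244 bases before the start. In Acta1 (chr8:123894776-123895025, minus strand), Actc1 (chr2:114052876-114053125, minus strand) and Srf (chr17:46556163-46556412, minus strand) they are CArG boxes, the sequence bound by serum response factor, which ends 64 bases before the start in Acta1 and 38 in Actc1 and occurs in 2 copies in Srf.
Nppa: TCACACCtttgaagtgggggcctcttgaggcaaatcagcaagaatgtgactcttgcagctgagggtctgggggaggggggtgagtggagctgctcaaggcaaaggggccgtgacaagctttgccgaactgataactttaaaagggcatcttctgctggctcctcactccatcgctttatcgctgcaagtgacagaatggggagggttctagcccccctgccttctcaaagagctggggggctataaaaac
Acta1: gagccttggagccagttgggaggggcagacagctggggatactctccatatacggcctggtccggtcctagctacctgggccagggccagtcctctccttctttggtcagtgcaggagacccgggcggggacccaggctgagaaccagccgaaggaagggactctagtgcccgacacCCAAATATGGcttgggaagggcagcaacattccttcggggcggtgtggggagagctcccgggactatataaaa
Actc1: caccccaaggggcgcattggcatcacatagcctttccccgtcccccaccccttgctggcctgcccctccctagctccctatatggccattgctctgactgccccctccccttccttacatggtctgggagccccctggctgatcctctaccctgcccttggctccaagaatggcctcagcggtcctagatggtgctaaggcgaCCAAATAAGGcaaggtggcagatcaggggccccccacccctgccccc
Srf: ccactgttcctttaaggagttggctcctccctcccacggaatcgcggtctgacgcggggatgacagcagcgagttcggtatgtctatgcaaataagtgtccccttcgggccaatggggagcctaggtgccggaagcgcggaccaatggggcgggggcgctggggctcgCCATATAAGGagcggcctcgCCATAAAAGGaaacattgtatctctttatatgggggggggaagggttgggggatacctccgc
On both strands, the T-box core occurs in 1095 of 32851 RefSeq windows of this length (3.33%) and the CArG box in 482 (1.47%). Among the 124 genes named by rule, 88 had such a window, of which 4 held the T-box core (Acsl1, Ankrd1, Ckm and Nppa) and 5 a CArG box (Acta1, Actc1, Cited1, Myl7 and Srf). Nppa and Cited1 were higher in the left, whereas Acsl1, Ankrd1, Ckm, Acta1, Actc1, Myl7 and Srf were higher in the right. These 88 genes had 110 windows, so counts of genes and shares of windows are unlike measures. Of the 15 largest changes toward the left, 7 had a window and 0 held either motif. Toward the right 11 of 15 had a window, and 1 held the T-box core (Ckm) and 1 a CArG box (Acta1). The window of Gja5 held neither motif. The motifs do not overlap each other in the 4 windows printed. A match is a description of the letters and not a binding site.

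Genes linked to the right ventricle were called in both directions. Of 14 tested members of the list of factors of the right ventricle, the second heart field and the outflow tract, 3 were called higher in the right and 1 in the left, against 8.83% and 7.06% of all genes, with a median of -0.01 that changed sign with library totals (0.04), with TPM (0.07) and without right ventricle control 2 (0.14). Leaving that library out gave 3 in each direction, against 14.2% in the right and 11.9% in the left over all genes. Leaving out left ventricle control 2 or 3 or right ventricle control 1 or 3 gave 1 in the right and 0 in the left. Hand2, the factor known from the right ventricle, was at 34.4, 39.3, 36.9 and 39.4 TPM in the left and 34.6, 51.4, 35.1 and 34.2 TPM in the right. These groups overlapped and the difference of -0.20 (SE 0.10, adjusted p = 0.218) did not pass the test. The 3 members higher in the right were Sema3c, Fgf10 and Smyd1. Sema3c, a guidance ligand of the outflow tract, was at 1.92 to 2.44 TPM in the left and 5.2, 11.4, 5.2 and 5.37 TPM in the right (-1.59, SE 0.21, adjusted p = 0.00136), with the highest value in right ventricle control 2. Fgf10, a growth factor of the second heart field, was at 0.127 to 0.426 TPM over the 8 libraries (-1.18, adjusted p = 0.0289), and its call ended with length-scaled counts and with a replicate block. Smyd1, a muscle methyltransferase, differed by -0.22 (SE 0.06), and Ldb1, a cofactor of LIM proteins, was the member higher in the left, by 0.18 (SE 0.05).

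The gene that the study targets differed little between control chambers. Prdm16 (chr4:154316125-154636873, minus strand) was at 5.37, 8.69, 7.98 and 7.63 TPM in the left and 5.80, 6.66, 4.66 and 5.04 TPM in the right. In TPM the groups overlapped through left ventricle control 1, in CPM they did not, and the count test gave 0.36 (SE 0.08, adjusted p = 0.0131), higher in the left. The call ended with length-scaled counts and with limma on log2(TPM + 1). Prdm16 was the member of the compact wall list called with all 8 libraries, 1 of 8 tested, where 7.06% of all genes were higher in the left. Hey2, a compact wall repressor, was at 57.5 to 59.8 TPM in the left and 57.3 to 66.6 TPM in the right and was not called (-0.18, adjusted p = 0.0729), although without right ventricle control 2 it was higher in the right (-0.24, SE 0.04, adjusted p = 0.000746). Mycn, a growth regulator of the compact wall, was at 16.4 to 19.2 TPM against 14.3 to 16 TPM, with a count difference of 0.04. Tbx20, on the same list, was at 66.0 to 81.2 TPM in the left and at 45.9, 91.2, 46.8 and 55.1 TPM in the right, and was called (0.52, SE 0.06) when right ventricle control 2, its highest library, was left out.

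Of 34 cardiac transcription factors tested, 4 were higher in the left and 2 in the right with all 8 libraries (median 0.02), and 9 and 3 without right ventricle control 2. Over all genes tested the shares were 7.06% and 8.83% with all 8 libraries, and 11.9% and 14.2% without that one. The 4 were Hand1, Tbx5, Tbx18 and Prdm16. Tbx18, an epicardial T-box factor, was at 15 to 18.2 TPM in the left and 7.98 to 13.8 TPM in the right (0.48, SE 0.12, adjusted p = 0.0278). The 2 higher in the right were Irx6, at 0.837 to 1.46 TPM against 2.12 to 2.40 TPM (-1.09, SE 0.15, adjusted p = 0.00163), and Srf, whose product drives muscle gene expression (-0.37, SE 0.06, adjusted p = 0.00347). Irx6 did not overlap between the groups; Srf did in TPM, at 49.2 to 64.0 against 62.0 to 66.6, and its call ended with length-scaled counts. Irx4, a ventricular homeobox gene, stood at 33.6 to 37.9 TPM in the left and 29.5 to 35.1 TPM in the right and was not called.

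**Figure D3:**
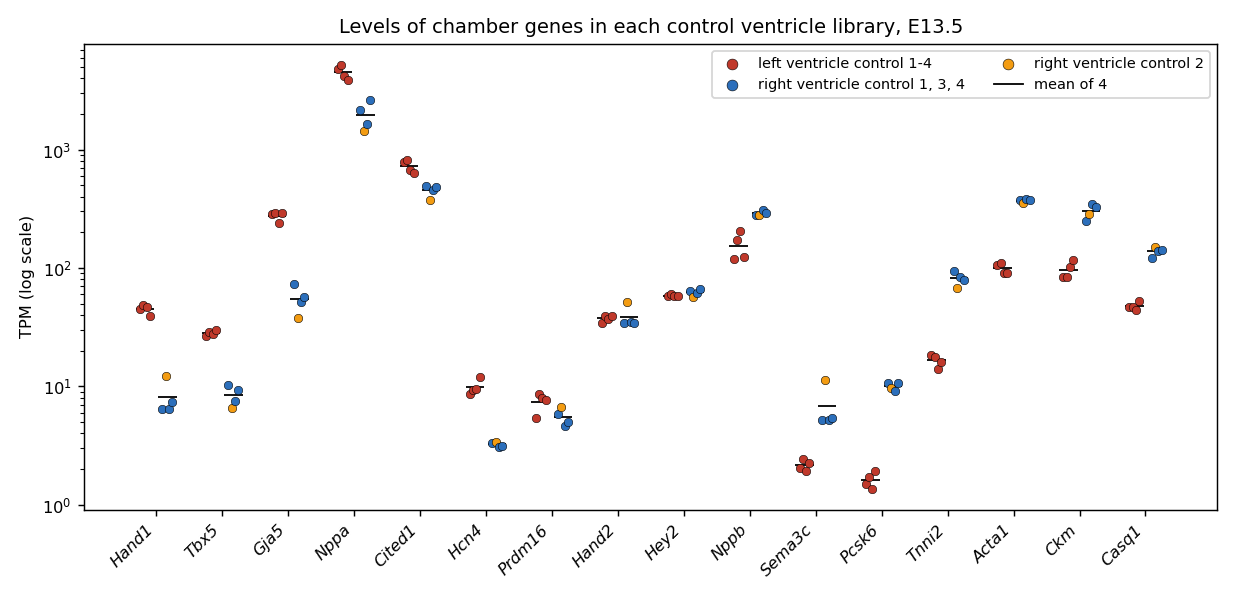
TPM on a log scale of 16 chamber genes in each of the 8 control libraries, with the mean of the 4 left and of the 4 right libraries as a line. Hand1, Tbx5, Gja5, Nppa, Cited1 and Hcn4 lie higher in the left and Nppb, Sema3c, Pcsk6, Tnni2, Acta1, Ckm and Casq1 higher in the right without overlap, while Prdm16, Hand2 and Hey2 overlap.

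The other large differences toward the left came from genes of varied function. Gtsf1, known as a partner of small-RNA pathways in the germ line, was at 93.4, 93.1, 104 and 83.0 TPM in the left and 16.4 ± 2.73 TPM (SD, n = 4) in the right, the largest toward the left among the well-expressed genes that the rule takes by size (2.49, SE 0.13, adjusted p = 4.23e-06, 5.62-fold). Cdo1, the enzyme that oxidises cysteine, was at 27.9 to 35.0 TPM against 4.58 to 14.3 TPM (1.91, SE 0.11). Neither of these genes overlapped between the chambers, which the rule required for CPM. Adamts19, a secreted protease, was at 24.6 to 27.1 TPM against 6.63 to 9.58 TPM (1.68, SE 0.09). Ntn1, the guidance ligand netrin 1, was at 55.5 to 68.0 TPM against 16.1 to 26.7 TPM (1.38, SE 0.16). Further genes of this set were Lmntd1 (1.96), Cpne5 (1.76), Chn2 (1.61), Tcf24 (1.45) and Tmtc1 (1.32), each without overlap in CPM, as the rule required.

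The largest differences toward the right were partly in genes of contraction and of skeletal muscle type. Acta1, skeletal alpha actin (chr8:123891769-123894751, minus strand), was at 106, 110, 90.4 and 90.2 TPM in the left and 372, 355, 382 and 376 TPM in the right, 4.11-fold higher in the right (-2.04, SE 0.09, adjusted p = 1.26e-06). Tnni2, fast skeletal troponin I (chr7:142441808-142444410, plus strand), was at 18.4, 17.8, 13.9 and 16.2 TPM in the left and 94.6, 67.7, 84.3 and 79.9 TPM in the right (-2.36, SE 0.14, adjusted p = 8.32e-06). Neither gene overlapped, but the rule that took this set required no overlap in CPM. Right ventricle control 2 had the lowest right value of both Acta1 and Tnni2. Acta2, smooth muscle actin, which embryonic heart muscle also makes, was at 444 to 506 TPM against 1214 to 1358 TPM (-1.5, SE 0.07, adjusted p = 2.02e-06). Ckm, muscle creatine kinase (chr7:19404776-19422841, plus strand), was at 83.1 to 116 TPM against 251 to 350 TPM (-1.72, SE 0.13, adjusted p = 4.47e-05). Casq1, the calsequestrin of skeletal muscle, was at 43.8 to 52.4 TPM against 121 to 149 TPM (-1.59, SE 0.06, adjusted p = 4.32e-07). The actin genes are near-identical in their coding sequence, so their levels depend on how Salmon shared reads between them.

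Other genes with large differences toward the right had varied functions. Pcsk6, a protease that processes growth factors of the TGF-beta family (chr7:65861734-66050386, plus strand), was at 1.51, 1.71, 1.37 and 1.92 TPM in the left and 10.6, 9.66, 9.17 and 10.6 TPM in the right (-2.68, SE 0.10, adjusted p = 4.32e-07, 6.41-fold). The right libraries agreed within a narrow range, right ventricle control 2 included. Lrtm1, a leucine-rich repeat membrane protein, had the largest difference of this set, at 0.198 to 0.578 TPM against 2.60 to 4.11 TPM (-3.25, SE 0.17, adjusted p = 4.23e-06). Rxfp1, the relaxin receptor, was at 1.63 to 3.48 TPM against 7.89 to 11.9 TPM (-1.92, SE 0.22). In both genes the left and right libraries lay apart, which the rule required for CPM. Col2a1, a collagen of cartilage and cushions, was at 2.38 to 3.65 TPM in the left and 17.1, 38.5, 12.7 and 17.2 TPM in the right (-2.95, SE 0.30), and was higher in the right without right ventricle control 2 as well (-2.57, SE 0.14). Psd, an exchange factor for small GTPases, was at 1.19 to 2.03 TPM in the left and 6.21, 17.7, 7.35 and 6.95 TPM in the right (-2.75, SE 0.33). The remaining genes of this set were Sypl2 (-1.37), Aqp4 (-1.37), a water channel, Gabra4 (-1.58) and Myo16 (-1.57).

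Sarcomere genes were called higher in the right. Of 37 tested members, 16 were higher in the right, where 8.83% of all genes were, and 0 in the left with all 8 libraries (median -0.22). These were 24 and 0 without right ventricle control 2 (median -0.26), against 14.2% and 11.9% of all genes. At an unadjusted p under 0.05 in edgeR, 21 were higher in the right and 1 in the left, and DESeq2 called 19 and 0. The median stayed below 0 under every scaling tried, from -0.25 to -0.16. Actc1, cardiac alpha actin and one of the most abundant transcripts, was at 7724, 7511, 7691 and 7056 TPM in the left and 10267, 9193, 10367 and 10676 TPM in the right (-0.53, SE 0.07, adjusted p = 0.00121). Ankrd1, a stretch-linked protein of the Z-disc and nucleus, was at 253 to 378 TPM against 609 to 795 TPM (-1.34, SE 0.13, adjusted p = 0.000214). Both were without overlap. Actn2, the Z-disc actinin, differed by -0.43 (SE 0.07), and Ttn, the giant spring protein titin, by -0.32 (SE 0.05). These differences were smaller than those of Acta1 and Ankrd1. The major myosin heavy chains were not called: Myh7, the slow heavy chain, was at 3805 to 4213 TPM against 4132 to 4356 TPM and Myh6, the fast one, at 647 to 734 TPM against 692 to 729 TPM. Myh7 (-0.19, SE 0.05) and Myl2 (-0.19, SE 0.05) were called higher in the right when right ventricle control 2 was left out. The light chains shared with the atria were higher in the right, Myl4 by -0.38 (SE 0.06) and Myl7 by -0.51 (SE 0.11).

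Summed levels of general muscle markers were also higher in the right. The 8 general cardiomyocyte markers, most of which are also on the sarcomere list, summed to 19046 to 20372 TPM in the left and 21518 to 23489 TPM in the right, with 4 of 8 called higher in the right and 0 in the left (5 and 0 at an unadjusted p under 0.05 in edgeR, 4 and 0 with DESeq2). No member was at 0 in all 8 libraries. Over all genes tested, 8.83% were called higher in the right and 7.06% in the left. Without right ventricle control 2 these shares were 14.2% and 11.9%. The 8 ventricular markers had 0 calls in either direction in edgeR (3 higher in the right and 1 in the left at an unadjusted p under 0.05, 2 higher in the right with DESeq2), with sums of 34318 to 36907 TPM in the left and 32578 to 38205 TPM in the right. This rested in part on right ventricle control 2, which had the lowest sum of all. Without it 3 of the 8 were called higher in the right and 0 in the left, and the other 3 right sums, from 37352 TPM up, lay above every left one. Of 12 erythroid markers, 2 (Hba-a2 and Alas2) were called higher in the left, and their summed levels overlapped, at 27570 to 52079 TPM in the left and 13831 to 32911 TPM in the right. Of these 12, 0 were called with length-scaled counts, with robust dispersion, with limma on log2(TPM + 1), or when left ventricle control 1, 2 or 4 or right ventricle control 3 or 4 was left out. By contrast, 8 were called without right ventricle control 1. With all 8 libraries, 4 were called with library totals, 6 with limma voom and quality weights, 7 with no filter on low counts and 9 with a replicate block, all higher in the left. Haemoglobin genes held 0.99% to 1.92% of reads in the left and 0.51% to 1.24% in the right. The part of these levels in the muscle gene differences was not tested. Leaving the haemoglobin genes out of the counts gave 2529 called genes.

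Calcium handling genes were split. Of 23 tested, 7 were higher in the right (8.83% over all genes) and 1 in the left (7.06%), with a median of -0.04 that was 0.02 with library totals. Leaving out right ventricle control 2 gave 9 and 4, against 14.2% and 11.9% of all genes. Ryr2, the calcium release channel of heart muscle, was at 50.8 to 52.8 TPM in the left and 59.9 to 72.7 TPM in the right (-0.39, SE 0.05, adjusted p = 0.00116). Atp2a2, the pump that returns calcium to the store, was at 423 to 446 TPM against 492 to 566 TPM (-0.40, SE 0.07, adjusted p = 0.00465). Both lay apart between the chambers. Ryr3, a release channel of minor abundance, was called by counts (-0.82, SE 0.13) but overlapped in TPM, at 1.52 to 2.67 against 2.24 to 10.5 TPM, and its call ended with length-scaled counts.

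Ion channels and connexins were called in both directions. Of 24 tested, 8 were higher in the left and 4 in the right, both above the 7.06% and 8.83% over all genes (median 0.20). The counts were 9 and 5 without right ventricle control 2 (median 0.13), against 11.9% and 14.2% of all genes. After Gja5 and Hcn4, the smallest p belonged to Kcnj5 and Kcnd3. Kcnj5, a subunit of the acetylcholine-gated potassium channel, was at 19.2 to 20.9 TPM in the left and 12.7 to 14.6 TPM in the right (0.53, SE 0.04, adjusted p = 9.24e-05). Kcnd3, which carries transient outward current, was at 1.63 to 2.13 TPM against 0.700 to 0.863 TPM (1.17, SE 0.13, adjusted p = 0.000427). Neither overlapped. Kcnk3, a background potassium channel, was at 30.7 to 38.8 TPM against 13.4 to 20.7 TPM (0.70, SE 0.09). Gjc1, the connexin 45 gene, was higher in the right (-0.25, SE 0.05), a call that ended with library totals and with length-scaled counts.

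Of 8 tested conduction system markers, 3 were higher in the left (Shox2, Hcn4 and Cpne5) and 1, Gjc1, in the right (median 0.88), against 7.06% and 8.83% of all genes. Without right ventricle control 2, 6 were higher in the left and 1 in the right (median 1.54), against 11.9% and 14.2% of all genes. Cpne5, a calcium-binding protein of the ventricular conduction system, was at 9.83 to 16.2 TPM in the left and 2.58 to 3.76 TPM in the right (1.76, SE 0.17, adjusted p = 0.000183). Shox2, a factor of the sinus node, overlapped in TPM, at 0.432, 0.171, 1.12 and 2.90 TPM in the left and 0.115, 0.293, 0.0457 and 0.103 TPM in the right. Its call (2.95, SE 0.84, adjusted p = 0.0387) ended without left ventricle control 3 or 4, the libraries with its highest levels, and under several other alternatives. The 13 atrial markers summed to 3349 to 3587 TPM in the left and 4195 to 4538 TPM in the right. Of these 11 were tested, with 4 higher in the left and 2 in the right, against 7.06% and 8.83% of all genes. The 2 were Myl4 and Myl7, which embryonic ventricles make too, and the 4 included Kcnj5 and Kcnk3.

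Genes of energy supply were called mostly higher in the right. Of 35 nuclear genes of oxidative phosphorylation tested, 18 were higher in the right, where 8.83% of all genes were, and 0 in the left (median -0.23). These were 33 and 0 without right ventricle control 2 (median -0.31), against 14.2% and 11.9% of all genes. Of 24 genes of glycolysis and glycogen, 10 were higher in the right and 0 in the left (median -0.22), and 22 and 0 without that library. The counts rested on single libraries in the other direction too. Without left ventricle control 2, 3 or 4, oxidative phosphorylation had 10, 11 and 7 calls and glycolysis 6, 5 and 6, and without right ventricle control 1, 3 or 4 they had 9, 8 and 9, and 5, 4 and 5, all higher in the right. At an unadjusted p under 0.05 in edgeR, 31 and 18 members of these lists were higher in the right and 0 in the left, and DESeq2 called 26 and 14. For both lists the median stayed below 0 under every scaling, and length-scaled counts called 8 and 5 members. Cox6a2, the heart and skeletal muscle form of a cytochrome oxidase subunit, was at 203, 206, 206 and 210 TPM in the left and 287, 265, 287 and 308 TPM in the right (-0.59, SE 0.07, adjusted p = 0.000461). Cyc1, cytochrome c1, was at 510 to 556 TPM against 621 to 767 TPM (-0.53, SE 0.07), and Cycs, cytochrome c, at 408 to 440 TPM against 553 to 670 TPM (-0.58, SE 0.09). In these 3 genes the chambers did not overlap, and right ventricle control 2 was the lowest of the right libraries.

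Slc2a1, the main glucose transporter of the embryonic heart, was at 77.4 to 82.3 TPM in the left and 133, 184, 129 and 144 TPM in the right (-0.93, SE 0.09, adjusted p = 0.000154). Eno3, the muscle enolase, was at 191 to 204 TPM against 252 to 295 TPM (-0.57, SE 0.06), and Ldha, a lactate dehydrogenase subunit, at 1427 to 1464 TPM against 1618 to 1941 TPM (-0.37, SE 0.07). All 3 were without overlap. Of 29 fatty acid genes, 4 were higher in the right and 1 in the left, shares near those over all genes. Leaving out right ventricle control 2 gave 13 and 2, against 14.2% and 11.9% of all genes. When any other 1 of the 8 was left out, 1 or 2 were higher in the right. Lpl, which frees fatty acids from lipoproteins, was higher in the right (-0.45, SE 0.10) and Ucp2, a mitochondrial carrier, in the left (0.33, SE 0.05). Among the 5 genes of creatine kinases and oxygen storage, Ckm, Ckb (-0.69, SE 0.09) and Ak1 (-0.23, SE 0.07) were higher in the right, while Ckmt2, the mitochondrial creatine kinase of striated muscle, was higher in the left, at 8.99 to 11.3 TPM against 4.51 to 7.12 TPM (0.80, SE 0.16, adjusted p = 0.00791).

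Of the 13 proteins encoded in the mitochondrial genome, 2 (mt-Co2 and mt-Nd1) were called, both higher in the right (-0.23, SE 0.06, and -0.29, SE 0.08), against 8.83% of all genes. The count was 4 without right ventricle control 2, where 14.2% of all genes were higher in the right. It was 1 without left ventricle control 2 or right ventricle control 4, and 0 without any of the other 5 libraries. Mitochondrial reads made up 6.3% to 6.88% of the left and 6.65% to 7.38% of the right libraries. Cell division genes had 11 of 33 higher in the right, against 8.83% of all genes, and 0 in the left (median -0.16). Their counts were 27 and 0 without right ventricle control 2 (median -0.21), against 14.2% and 11.9% of all genes. Without left ventricle control 2, 3 or 4 the calls were 5, 4 and 5, and without right ventricle control 1, 3 or 4 they were 5, 7 and 4, all higher in the right. At an unadjusted p under 0.05 in edgeR, 20 were higher in the right and 0 in the left, and DESeq2 called 13 and 0. Mcm3, a subunit of the replication helicase, was at 49.2 to 52.2 TPM in the left and 55.7 to 62.0 TPM in the right (-0.23, SE 0.04, adjusted p = 0.00666). Ccne1 (-0.36, SE 0.08) and Ccne2 (-0.29, SE 0.06), the E cyclins of S-phase entry, and Cdc6 (-0.30, SE 0.06), which licenses replication origins, were higher in the right by counts but overlapped in TPM. With length-scaled counts 2 of the 33 were called. Of the 29 cytosolic ribosomal protein genes, 0 were called in edgeR with all 8 libraries (1 in each direction at an unadjusted p under 0.05) and 1 with DESeq2.

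**Figure D4:**
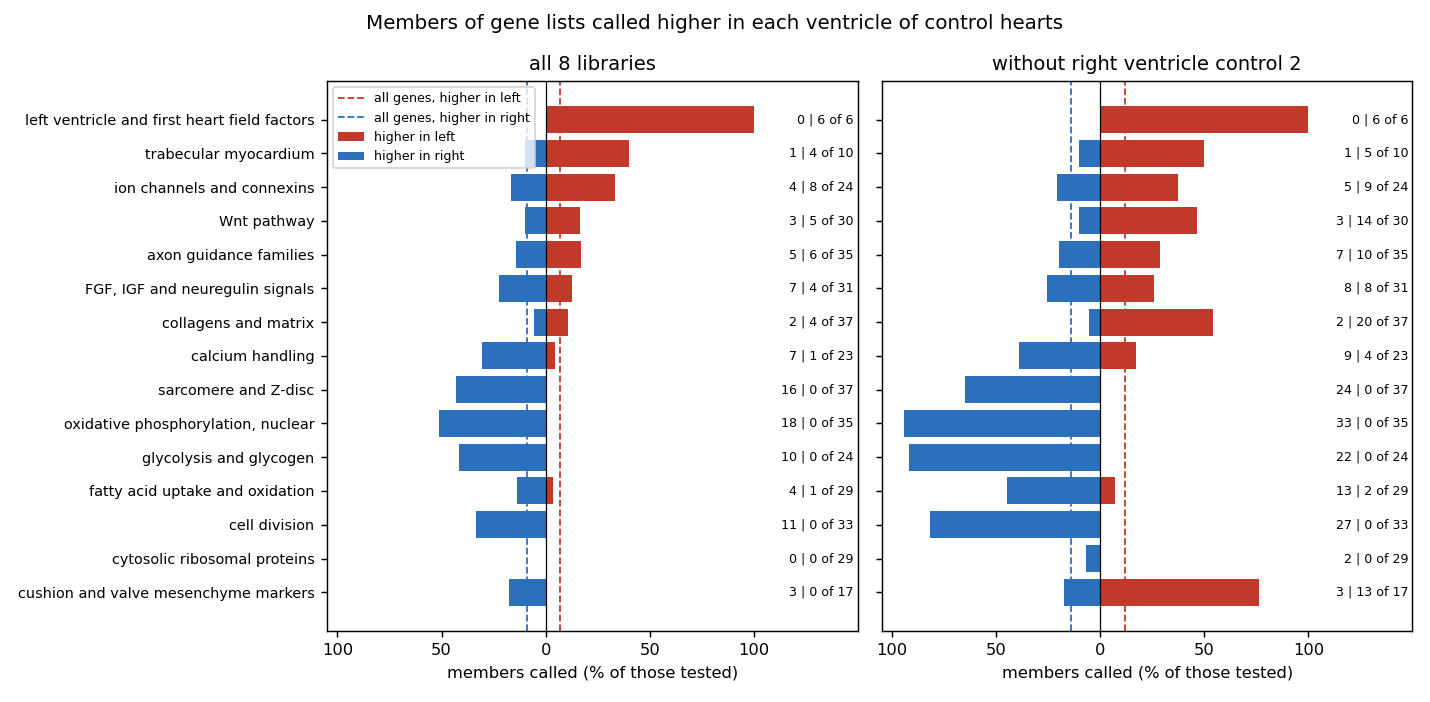
Share of the tested members of 15 gene lists called higher in the left (red, to the right of 0) or in the right ventricle (blue, to the left of 0), with all 8 libraries (left panel) and without right ventricle control 2 (right panel); dashed lines give the share over all genes tested, and the figures at the edge give the members called higher in right, higher in left and tested. Sarcomere, oxidative phosphorylation, glycolysis and cell division lists hold calls in the right ventricle only in both panels, while the cushion list goes from 0 to 13 members higher in the left.

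Genes of the Wnt pathway were called in both directions. Wif1, which binds Wnt ligands, was at 0.441, 0.443, 0.471 and 0.509 TPM in the left and 3.01, 3.46, 4.31 and 3.61 TPM in the right (-2.90, SE 0.17, adjusted p = 8.32e-06). Sfrp5, a decoy receptor, was at 3.62, 4.54, 4.13 and 5.10 TPM in the left and 0.789, 0.281, 0.269 and 0.646 TPM in the right (3.01, SE 0.30, adjusted p = 0.000257). The chambers lay far apart in both genes. Nkd2, an intracellular Wnt antagonist, was higher in the right (-1.01, SE 0.14). Wnt5a, a ligand, was higher in the left by counts (0.34, SE 0.07) with overlap in TPM. Of the 30 tested members of the pathway, 5 were higher in the left (7.06% over all genes) and 3 in the right (8.83%), with a median of 0.13. The counts were 14 and 3 without right ventricle control 2 (median 0.43), against 11.9% and 14.2% of all genes. In the left there were 3 without left ventricle control 3, and 2 without left ventricle control 4 or right ventricle control 1, 3 or 4. Wnt11, an outflow ligand, was at 9.55 to 10.9 TPM against 7.19 to 9.69 TPM and was not called. Rspo3, which amplifies Wnt signals, was at 4.20, 1.65, 3.56 and 4.17 TPM in the left and 1.01, 7.54, 0.613 and 0.905 TPM in the right. It was not called with all 8 libraries and was called higher in the left without right ventricle control 2 (1.77, SE 0.27, adjusted p = 0.000781).

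Guidance genes were called in both chambers. Of 35 tested, 6 were higher in the left and 5 in the right, against 7.06% and 8.83% of all genes. Leaving out right ventricle control 2 gave 10 and 7, against 11.9% and 14.2%. Beside Ntn1 and Sema3c, described above, Plxna2, a plexin that receives semaphorin signals, was at 8.14 to 11.7 TPM in the left and 4.94 to 5.98 TPM in the right (0.79, SE 0.09, adjusted p = 0.000638), and the ligand Slit3 was at 6.5 to 7.66 TPM against 4.45 to 5.28 TPM (0.40, SE 0.06, adjusted p = 0.00318). Neither overlapped. Among FGF, IGF and neuregulin signals, 4 of 31 were higher in the left and 7 in the right, against 7.06% and 8.83% of all genes. They were 8 and 8 without right ventricle control 2, against 11.9% and 14.2%, and 3 and 4 without left ventricle control 2 or right ventricle control 3. Etv4 and Etv5, transcription factors induced by FGF signalling, were higher in the right, Etv4 at 7.22 to 8.16 TPM against 10.7 to 15.6 TPM (-0.59, SE 0.09, adjusted p = 0.0024) and Etv5 at 6.87 to 9.44 TPM against 9.78 to 12.6 TPM (-0.58, SE 0.08). The binding proteins Igfbp2 (0.60, SE 0.09) and Igfbp5 (0.38, SE 0.05), which hold insulin-like growth factors, were higher in the left. Cxcl12, a chemokine that guides coronary vessels, was at 180, 157, 153 and 180 TPM in the left and 60.7, 103, 61.8 and 62.5 TPM in the right (1.16, SE 0.15, adjusted p = 0.00112).

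Cushion mesenchyme was the group that right ventricle control 2 decided. With all 8 libraries, 3 of 17 cushion markers were higher in the right and 0 in the left (median -0.26), against 8.83% and 7.06% of all genes. Without right ventricle control 2, 13 were higher in the left and 3 in the right (median 1.06), against 11.9% and 14.2%. With all 8 libraries the median was also positive with limma on log2(TPM + 1) (0.32) and under a replicate block (0.36). It was 0.87 with limma voom and quality weights, which called 7 of the 17 higher in the left and 3 in the right. EdgeR put 1 member higher in the left at an unadjusted p under 0.05, DESeq2 0. Postn was at 128, 81.0, 166 and 128 TPM in the left and 44.1, 266, 47.6 and 42.0 TPM in the right, so that the left libraries lay above 3 of the right and below the fourth. Its difference was 0.24 (SE 0.53, adjusted p = 0.809) with all 8 libraries and 1.29 (SE 0.18, adjusted p = 0.000417) without that one. Meox1 changed sign, from -0.43 (SE 0.81, not called) to 1.66 (SE 0.26, adjusted p = 0.000967). The 3 higher in the right either way were Col2a1, Prrx2 and Vcan. Prrx2, a homeobox gene of mesenchyme, was at 20.9 to 27.3 TPM against 28.1 to 44.6 TPM (-0.64, SE 0.11), and Vcan, the proteoglycan of cardiac jelly, at 75.2 to 107 TPM against 110 to 150 TPM (-0.55, SE 0.14, and -0.37, SE 0.07 without that library).

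Collagens and other matrix genes were called in small number with all 8 libraries, 4 of 37 higher in the left and 2 in the right, shares near those over all genes. The counts were 20 and 2 without right ventricle control 2, against 11.9% and 14.2% of all genes. Fbln1, a matrix protein of cushions and vessel walls, was higher in the left in both, at 87.9, 79.7, 83.7 and 80.0 TPM against 40.6, 46.9, 34.8 and 37.4 TPM (0.89, SE 0.06, adjusted p = 2.11e-05). Its chambers did not overlap. Of the 8 markers of outflow smooth muscle and arteries, Acta2 and Cnn1 (-0.41, SE 0.06) were higher in the right and Itga8 (0.46, SE 0.13) in the left, and their summed level was 764 to 869 TPM in the left, 1574 to 1732 TPM in right ventricle controls 1, 3 and 4 and 2030 TPM in right ventricle control 2. Acta2 held most of that sum. Over all genes tested, 8.83% were called higher in the right and 7.06% in the left. The 8 markers of outflow muscle from the second heart field summed to 175 to 224 TPM in the left, 81.5 to 82.6 TPM in 3 right libraries and 178 TPM in right ventricle control 2, with Cxcl12 as the largest member. The part of outflow or cushion RNA in the other differences was not tested.

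Markers of endothelial, coronary, epicardial and white blood cells were called about as often as all genes, of which 15.9% were. Of 15 endothelial and endocardial markers, 2 were higher in the left, Klf2, a flow-responsive factor (0.57, SE 0.14), and Tie1, an endothelial receptor (0.15, SE 0.04), with sums of 831 to 867 TPM in the left and 781 to 845 TPM in the right. Aplnr, the apelin receptor of venous and coronary vessels, was at 6.95 to 10.8 TPM against 4.16 to 5.52 TPM (0.81, SE 0.13, adjusted p = 0.00272) and was the 1 of 7 coronary markers called. Of 11 epicardial markers, Tbx18 was higher in the left and Krt8, a keratin, in the right (-0.78, SE 0.18). Of 12 macrophage markers, Lyz2 (0.76, SE 0.19) and Csf1r (0.42, SE 0.11) were higher in the left, with sums of 113 to 158 TPM against 83.1 to 99.6 TPM. The macrophage sums did not overlap between the chambers, whereas the endothelial ones did. Foxd3, of the neural crest list and named after its values were seen, was at 0 in all 8 libraries.

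The same contrast was made in other embryos, since the series holds left and right ventricles of 4 and 4 Prdm16 cKO libraries that share no library with the controls. The Cre driver of the cKO is not given in the sources used here. In these, 5714 of 15694 genes were called (36.4%), 2562 higher in the left (16.3%) and 3152 in the right (20.1%). Of the 2527 genes called in controls, 2499 were tested in the cKO, 1911 were called there, 1899 of them in the same direction and 12 in the opposite one. The 1899 are 76.0% of the control calls that were tested and 33.2% of the cKO calls, against 36.6% of all genes tested in both that were called in the cKO. All 6 genes of the left ventricle list were higher in the left there too: Hand1 by 2.14 (SE 0.09), Gja5 by 2.41 (SE 0.19) and Tbx5 by 1.45 (SE 0.10), at 40.0 ± 7.49 and 7.32 ± 1.12 TPM (SD, n = 4 each) for Hand1 in the left and right cKO ventricles. Acta1 was higher in the right by -2.29 (SE 0.10). Sarcomere genes had 31 of 37 higher in the right, and all 35 oxidative phosphorylation and all 24 glycolysis genes were. None of the 3 lists had a member higher in the left in the cKO. Cushion markers had 7 of 17 higher in the left and 3 in the right.

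A test of the difference itself, control contrast minus cKO contrast over all 16 ventricle libraries, called 236 of 16448 genes (1.43%), with the contrast higher in control for 0.973% and higher in the cKO for 0.462% of genes tested, and 110 of the 2526 control-called genes it covered (4.35%). Compact wall genes were among them. Hey2, not called between control chambers, was higher in the right by -1.29 (SE 0.05) in the cKO, and the contrasts differed by 1.10 (SE 0.08). The difference of contrasts was 0.65 (SE 0.08) for Mycn and 0.53 (SE 0.10) for Irx4, neither of which was called between control chambers. For Prdm16 itself the contrast went from 0.36 in controls to -0.08 in the cKO, a difference of 0.44 (SE 0.10, adjusted p = 0.0404). Ckm, higher in the right in both, differed more in the cKO (-3.02, SE 0.08, against -1.72), as did Aqp4 (-2.95, SE 0.14, against -1.37) and Lrtm1 (-5.42, SE 0.37, against -3.25). Ankrd1 differed less in the cKO (-0.34, SE 0.11, against -1.34), and Kcnk3 and Igfbp2, higher in the left in controls, were at -0.18 (SE 0.09, not called) and -0.36 (SE 0.09) there. For Hand1, Tbx5, Gja5 and Acta1 the difference between the genotypes was not called, with estimates of -0.07 (SE 0.14), 0.17 (SE 0.17), -0.10 (SE 0.29) and 0.24 (SE 0.14).

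**Figure D5:**
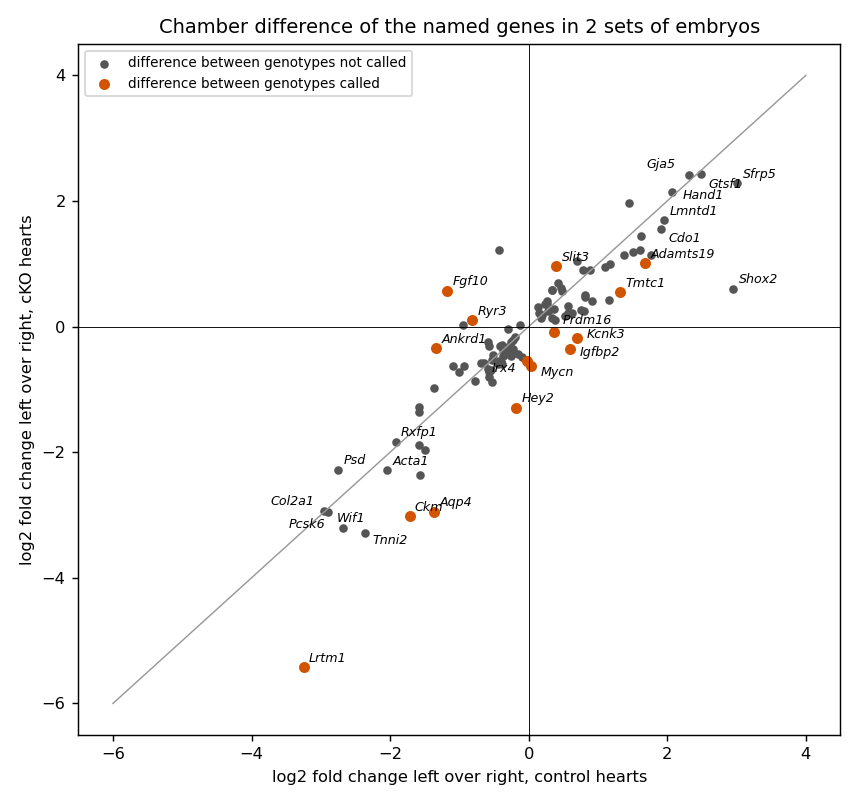
Log2 fold change, left over right, of the genes named by rule and described here, in control hearts (x axis, 8 libraries) and in cKO hearts (y axis, 8 other libraries), with equality as a grey line. Genes whose contrast differs between the genotypes by the test are in orange; Hand1, Gja5 and Acta1 lie near the line, while Hey2, Ckm, Aqp4 and Lrtm1 lie below it and Ankrd1 above it.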

How the data were processed

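Per the labels' protocols, RNA (integrity numbers 6.1 to 10) was taken up in TRIzol and made into TruSeq stranded mRNA libraries. The deposited files hold estimated counts and TPM per transcript for each library, from Salmon 1.2.1; the submitters' processing notes give that tool, DESeq2 1.22.2 and, as builds, mm10 and GRCm38.p6. The deposited estimated counts were not scaled between libraries, and the deposited TPM were scaled to transcript length and library. The 140658 transcripts were matched by identifier without version to GENCODE M21 (GRCm38); 140137 were found, and the other 521 were dropped, at most 0.162% of the reads of any control library.

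Sums over the transcripts of each of 54356 genes were taken for TPM and for estimated counts, the latter rounded. The main test was the quasi-likelihood F test of edgeR 4.0.16 in R 4.3.3, with filterByExpr by chamber and TMM factors, on the 8 control libraries with the chamber as the only term, Benjamini-Hochberg adjustment and a threshold of 0.05. An SE was obtained as the size of a log2 fold change over the square root of its F. The cKO ventricles were fitted alone in the same way, and the difference of contrasts in a model of 4 group means over 16 libraries. Log2 CPM used a prior count of 2. Alternatives covered the scaling, the filter, DESeq2 1.42.0, limma 3.58.1, counts scaled by transcript length, a replicate block and leaving out each library. The tests were checked on simulated counts.

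The members, the 24 gene lists, the 14 cell type marker lists and the tests were chosen with earlier results of these data known. Genes were named by rule: 25 core genes, up to 4 called genes of lowest p from every list, and the 15 largest changes in each direction among protein-coding genes called with and without right ventricle control 2, with mean log2 CPM of at least 2 and no overlap in CPM, leaving out Xist, Y-linked, haemoglobin and clone-like genes. Not every gene named by the rule is described. The whole heart libraries were not analysed here.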

Additional observations from a re-analysis of the deposited data

Results flagged for a closer look

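Values that lay far from the other 3 libraries of their group by Dixon's test, which chance gives in about 1 of 20 groups, were found 26 times in 266 groups examined, and 17 of these were in right ventricle control 2. Its values were, with those of the other 3 right libraries, 266 TPM for Postn (42.0 to 47.6), 25.8 for Meox1 (1.45 to 1.89), 2.86 for Isl1 (0.0499 to 0.133), 7.54 for Rspo3 (0.613 to 1.01), 11.4 for Sema3c (5.2 to 5.37), 103 for Cxcl12 (60.7 to 62.5), 51.4 for Hand2 (34.2 to 35.1), 12.2 for Hand1 (6.38 to 7.35), 204 for Igfbp5 (168 to 172), 6.78 for Itga8 (3.85 to 4.28), 17.7 for Psd (6.21 to 7.35) and, as the lowest value, 13.4 for Kcnk3 (20.0 to 20.7). Its marker sums were 783 TPM for cushion, 178 for outflow muscle, 67.0 for neural crest and neurons, 193 for conduction system and, as the lowest, 32578 for ventricular muscle.

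The other 9 were spread over 6 libraries. Left ventricle control 3 had the lowest Gja5 of its group, at 240 TPM. Left ventricle control 1 had the highest Klf2 (20.2 TPM) and Tcf24 (3.74 TPM), and left ventricle control 2 the highest Mycn (19.2 TPM) and Ntn1 (68.0 TPM). Left ventricle control 4 had the lowest mt-Co2 (20367 TPM). Right ventricle control 1 had the highest Myh7 (4356 TPM), right ventricle control 4 the lowest mt-Nd1 (7427 TPM), and right ventricle control 3 the highest sum of coronary markers (103 TPM).

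For 15 of the named genes the chamber difference itself differed between control and cKO embryos by the test over 16 libraries. Given as the control contrast minus the cKO contrast, the values were 1.10 for Hey2, 0.65 for Mycn, 0.53 for Irx4, 0.44 for Prdm16, 2.17 for Lrtm1, 1.58 for Aqp4, 1.30 for Ckm, -1.01 for Ankrd1, 0.67 for Adamts19, 0.77 for Tmtc1, 0.87 for Kcnk3, 0.95 for Igfbp2, -0.56 for Slit3, -0.92 for Ryr3 and -1.75 for Fgf10.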

How the results depend on the processing

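The 2527 genes called between control chambers became 4060 with limma voom and quality weights, 1090 with length-scaled counts, 1072 with limma on log2(TPM + 1) and 127 against a log2 fold change of 0.5. Leaving out 1 library gave 1499 to 4173 calls: 1499, 1614 and 1550 without left ventricle control 2, 3 or 4, 1563 and 1673 without right ventricle control 3 or 4, and 4173 without right ventricle control 2. A replicate block gave 2228 calls, and a replicate block with replicate 2 of both chambers left out gave 4462. The numbers were not taken as pairs: same-numbered deviations correlated at -0.12 to 0.10, and 1 of 4 libraries correlated best with its own number. Other scalings, filters, DESeq2 and the 16-library model gave counts within 1.5 times. Without right ventricle control 2, the 4173 calls became 2086 with length-scaled counts and 3035 to 4084 when a further library was left out. The 5714 cKO calls became 4973 to 5623. The 236 differences of contrasts became 466 with DESeq2 and 125 to 358 without 1 library (146, 151 and 137 without left ventricle control 2, 3 or 4; 358 without right ventricle control 2; 135, 125 and 157 without left cKO 2, 3 or 4; 138 and 136 without right cKO 2 or 4).

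All 105 named genes that were called and are described here kept their direction under the 22 alternatives. The alternatives reuse the libraries in which these genes were called, so the kept direction is not independent evidence. Of the 105, 70 kept their call under all but the fold change threshold, and 29 lost it with length-scaled counts. Calls that ended when some library was left out were those of Smyd1, Ldb1, Ak1, Acadm, Acsl1, Tgfbr1, Mib1, Tie1, Klf2, Lyz2, Csf1r, Hba-a2, Alas2, Krt8, Tbx18, Vcan, Itga8, Fgf10, Shox2, mt-Co2 and mt-Nd1. Meox1, not called with all 8 libraries, stood at -0.78 to 1.66 when 1 library was left out, and reversed to 1.66 without right ventricle control 2 and to 1.85 under the replicate block without replicate 2. The causes were not tested. Fgf10, Shox2 and Isl1 were at low levels, and the part of sequencing depth in their values was not tested.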

Other observations

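Further lists are the following. Of 35 tested genes of the BMP and TGF-beta pathway, 1 was higher in the left (Tgfbr1, a receptor, 0.26, SE 0.08) and 1 in the right (Bmp7, a ligand, -0.44, SE 0.08, 45.5 ± 3.20 against 57.6 ± 4.49 TPM, SD, n = 4 each), and 7 and 4 without right ventricle control 2, against 7.06% and 8.83% of all genes, and 11.9% and 14.2% without that library. Of 18 Notch pathway genes, Mib1, a ligase needed for ligand activity, was higher in the left (0.19, SE 0.05), and without that library 2 were higher in the left and 3 in the right. The calls of Tgfbr1 and Mib1 ended with length-scaled counts.

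Genes of the hypoxia response were called in both directions, 3 of 20 higher in the left and 7 in the right (median -0.15), against 7.06% and 8.83% of all genes. Without right ventricle control 2 there were 4 and 11, against 11.9% and 14.2% of all genes. There were 2 and 4 without left ventricle control 2 or right ventricle control 3, and 0 and 3 with length-scaled counts. Epas1, which encodes an oxygen-sensed factor, was higher in the left (0.36, SE 0.06) and Slc2a1 and P4ha2, a collagen-modifying enzyme (-0.30, SE 0.05), in the right. Ndrg1 was higher in the left by counts (0.62, SE 0.10), although its TPM ranged from 8.47 to 18.7 in the left and from 4.93 to 12.7 in the right.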
